A study of Mus musculus with 8 samples.

Results

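The genes examined here encode 10 fibroblast growth factor (FGF) ligands and receptors in SV-LECs, an SV40-immortalized mouse lymphatic endothelial cell line derived from adventitial tissue of the mesentery. The members were the rows of the count table with the symbols Fgf1, Fgf2, Fgf7, Fgf10, Fgf18, Fgf21, Fgfr1, Fgfr2, Fgfr3 and Fgfrl1, which are 6 ligand genes and 4 receptor genes among 55471 genes in all. Each symbol occurred in 1 row. SV-LECs growing in medium with 10% FBS were left untreated, or were treated with 10 ng/ml TGFβ1 for 72 h, and poly(A) RNA was sequenced in 4 libraries per group. The methods call the 4 samples of a group technical replicates, so each p-value measures the spread between libraries of 1 cell line and not between independent cultures. The comparison asks which FGF genes differed in RNA level between SV-LECs with and without TGFβ1, a cytokine of the tumor microenvironment.

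FGFs are signalling proteins that bind heparan sulfate at the cell surface and bring together receptor tyrosine kinases encoded by Fgfr1 to Fgfr4, which then activate the RAS-ERK and PI3K pathways. Most FGFs act close to the cell that makes them, while a few, among them FGF21, circulate as hormones and need a Klotho protein as co-receptor. In lymphatic vessels, FGF2 is known as a growth factor for the endothelium, and FGFR1 and FGFR3 are known as receptors on these cells.

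The 8 libraries held between 18952504 and 26386941 counts, and 13818 genes passed the filter on low counts. Counts were expressed as CPM (counts per 1000000) after library sizes were adjusted by the trimmed mean of M-values (TMM), and a floor of 3 counts was equal to 0.113 to 0.162 CPM depending on the library. The first principal component separated the groups and held 88.8% of the variance. Of 8 markers of lymphatic endothelium, 3 passed the filter (Pdpn, Flt4 and Nrp2), while Ccl21a was at 0 and Prox1, Lyve1 and Reln were at no more than 3 counts in every library. Of 10 markers of endothelium in general, 4 passed (Kdr, Tek, Egfl7 and Eng). Tie1 and Erg were at 0, and Cdh5 and Emcn were at no more than 3 counts in every library. Of 10 markers of fibroblasts and mural cells, 9 passed, and Col1a1 had a mean of 3459 CPM in untreated and 6057 CPM in TGFβ1-treated libraries. The defining genes of the labelled cell type were thus mostly at or near 0 in this RNA. The summed CPM of the markers ranged from 412 to 448 in untreated and from 426 to 440 in treated libraries for lymphatic endothelium, from 76.4 to 83.7 and from 166 to 176 for endothelium, and from 8954 to 11296 and from 12700.4 to 14101 for fibroblasts and mural cells. For epithelium the sums were 39.5 to 49.1 and 43.5 to 51.2 CPM, and for leukocytes 6.02 to 8.25 and 16.2 to 18.6 CPM, with Ptprc, the pan-leukocyte gene, at no more than 1 count in any library. Most of the lymphatic sum was Pdpn, at a mean of 342 CPM in untreated and 313 CPM in treated libraries. Nrp2 was at 66.4 and 88.3 CPM and Flt4 at 21.6 and 29.3 CPM. Most of the endothelial sum was Eng, at a mean of 62.0 CPM in untreated and 143 CPM in treated libraries, and Kdr was at 11.6 and 22.1 CPM. The part that these markers have in the results on FGF genes was not tested.

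Of the 10 members, 9 passed the filter on low counts. After TGFβ1, 3 of them were significantly higher (Fgf18, Fgfr1 and Fgf2) and 5 were significantly lower (Fgf21, Fgf10, Fgf7, Fgfr2 and Fgfrl1), while Fgfr3 did not pass the threshold of an FDR of 0.05 in edgeR's likelihood ratio test. These counts stand against a background in which 75.6% of all genes tested were called, 37.6% as higher and 38.0% as lower, so that 8 of 9 is close to the share of all genes. The median log2 fold change of the 9 tested members was -0.19, beside -0.01 over all genes tested. The libraries of the groups did not overlap in CPM for 7 members, a separation seen for 69.8% of all genes tested. Tested against a change of at least 1.5-fold with edgeR's glmTreat, 4 members passed, Fgf21, Fgf10, Fgf18 and Fgf7, where 25.1% of all genes tested did. All 4 were ligands and the receptors changed by less.

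**Figure D1:**
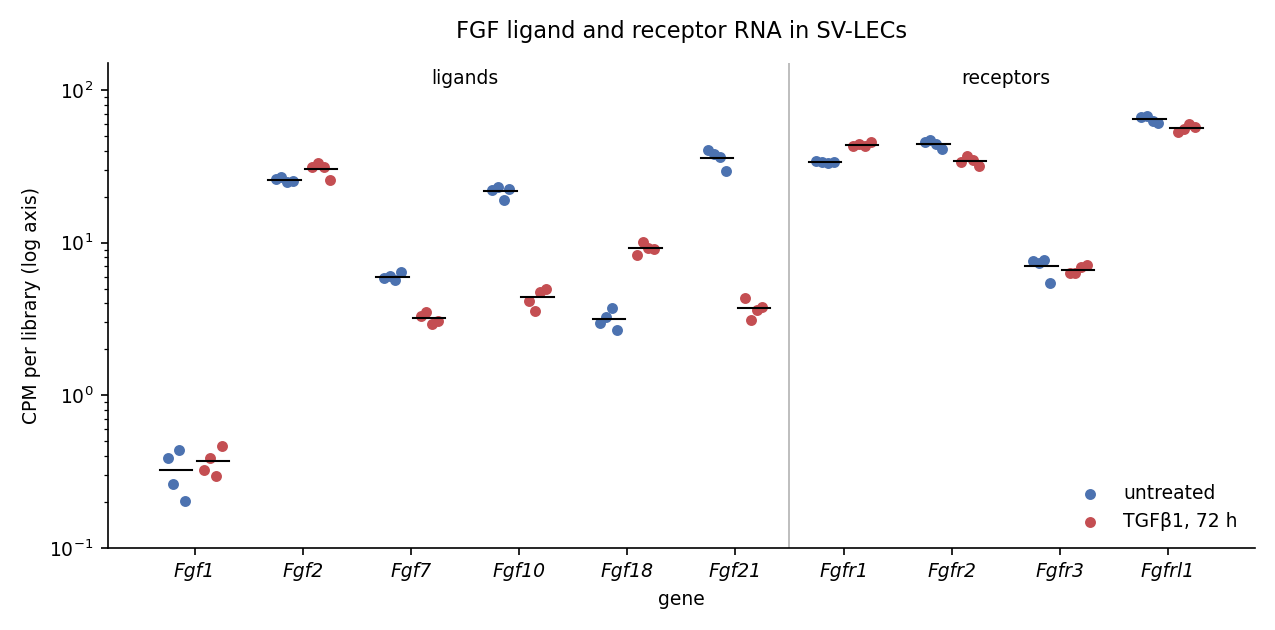
RNA level of each FGF ligand and receptor gene in every library, in CPM on a logarithmic axis, with untreated libraries in blue, TGFβ1-treated libraries in red and the mean of each group of 4 as a black bar. Fgf21 and Fgf10 lie far lower in all treated libraries and Fgf18 far higher, while the 2 groups of points overlap for Fgf1, Fgf2 and Fgfr3.

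The sequences before the transcription starts of these 4 ligand genes are shown because these members passed the test against a 1.5-fold change. They are the 250 bases upstream of the RefSeq start on the GRCm38.p6 assembly, each read 5′ to 3′ on the strand of the gene. The windows are chr7:45615491-45615740 on the minus strand for Fgf21, chr13:118714449-118714698 on the plus strand for Fgf10, chr2:126034408-126034657 on the plus strand for Fgf7 and chr11:33147401-33147650 on the minus strand for Fgf18. The Fgf10 window lies within the annotated gene, which begins at 118669791 and so has a further annotated start upstream. The windows of Fgf21, Fgf7 and Fgf18 adjoin the annotated start of the gene. Capitals mark matches on either strand to 5 motifs searched: CAGAC, bound by SMAD proteins (GTCTG on the other strand); TGANTCA, bound by AP-1; TGATGNAA, the core of the composite element bound by ATF4 with C/EBP; TATAAA, the TATA box; and GGGCGG, the GC box bound by SP1.
Fgf21: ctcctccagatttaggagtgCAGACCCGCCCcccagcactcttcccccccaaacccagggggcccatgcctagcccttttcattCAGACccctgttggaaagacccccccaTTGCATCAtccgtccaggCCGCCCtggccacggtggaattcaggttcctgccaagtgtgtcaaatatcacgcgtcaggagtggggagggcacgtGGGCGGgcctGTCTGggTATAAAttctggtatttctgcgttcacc
Fgf10: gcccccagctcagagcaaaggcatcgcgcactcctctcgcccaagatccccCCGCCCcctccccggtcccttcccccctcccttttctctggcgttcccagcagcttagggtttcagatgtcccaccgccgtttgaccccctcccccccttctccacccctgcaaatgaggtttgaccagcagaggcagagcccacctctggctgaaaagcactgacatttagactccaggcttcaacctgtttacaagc
Fgf7: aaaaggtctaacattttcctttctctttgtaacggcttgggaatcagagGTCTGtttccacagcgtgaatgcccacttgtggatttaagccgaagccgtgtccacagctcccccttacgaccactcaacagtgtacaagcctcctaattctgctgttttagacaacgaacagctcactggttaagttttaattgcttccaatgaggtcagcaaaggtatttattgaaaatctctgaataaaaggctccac
Fgf18: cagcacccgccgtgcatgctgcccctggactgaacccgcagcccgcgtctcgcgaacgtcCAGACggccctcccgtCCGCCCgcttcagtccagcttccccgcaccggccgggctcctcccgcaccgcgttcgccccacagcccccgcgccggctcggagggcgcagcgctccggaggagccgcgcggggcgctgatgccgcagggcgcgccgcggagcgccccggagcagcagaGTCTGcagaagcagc
The Fgf21 window held 3 matches to CAGAC, 230, 166 and 35 bases upstream of the start, 3 to GGGCGG, 1 to TATAAA at 28 bases and 1 to TGATGNAA at 139 bases, written here on the opposite strand as TTGCATCA. The CAGAC match at 230 bases is followed directly by a GC box on the opposite strand, so both appear as 1 run of capitals. Fgf18 held 2 matches to CAGAC, at 190 and 15 bases, and 1 to GGGCGG, in a window with 77.2% G and C. Fgf7 held 1 match to CAGAC in a window with 43.6% G and C, and Fgf10 held 1 match to GGGCGG and none to the others. Among 32851 promoter windows of the mouse genome, CAGAC was found in 42.2%, GGGCGG in 32.7%, TATAAA in 12.4%, TGANTCA in 6.75% and TGATGNAA in 3.45%. The median window held 52.4% G and C. CAGAC was thus found before Fgf18, which rose, and before Fgf21 and Fgf7, which fell.

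Fgf21 (chr7:45613886-45615490 on GRCm38, minus strand) encodes the endocrine FGF of fasting and of cell stress and is known as a target of the transcription factor ATF4. Its level was 40.4, 38.1, 36.2 and 29.4 CPM in untreated libraries and 4.33, 3.12, 3.64 and 3.80 CPM in TGFβ1-treated libraries. The groups were far apart, with the lowest untreated library well above the highest treated one. The mean fell from 36.0 ± 4.74 to 3.72 ± 0.499 CPM (SD, n = 4 each), which is 9.70-fold lower with a log2 fold change of -3.28 (SE 0.123) and an edgeR FDR of 3.99e-163. It was the largest change among the members. Since the RNA came from whole cultures, fewer cells expressing a gene and less RNA per cell cannot be told apart. Klb, which encodes the β-Klotho co-receptor that FGF21 requires, had no more than 1 count in any library.

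Fgf10 (chr13:118669791-118792115, plus strand) and Fgf7 (chr2:126034658-126091185, plus strand) encode closely related ligands that mesenchymal cells are known to make for epithelium, where they act through the IIIb splice form of FGFR2. Fgf10 was at 22.3, 23.3, 19.2 and 22.5 CPM without and at 4.17, 3.55, 4.77 and 5.01 CPM with TGFβ1. All treated libraries lay below all untreated ones, and the mean fell from 21.8 ± 1.82 to 4.37 ± 0.652 CPM (SD, n = 4 each), a log2 fold change of -2.31 (SE 0.113, edgeR FDR 7.27e-98) or 4.95-fold. Fgf7 was lower to begin with, at 5.83, 6.01, 5.68 and 6.39 CPM, and was at 3.30, 3.51, 2.95 and 3.07 CPM with TGFβ1. Here too the groups did not overlap. The mean of Fgf7 fell from 5.98 ± 0.307 to 3.21 ± 0.246 CPM, 1.87-fold, with a log2 fold change of -0.90 (SE 0.121, edgeR FDR 1.44e-13). Both paracrine ligands of this pair thus fell, and the change of Fgf10 was the larger, with 95% intervals of the log2 fold change from -2.53 to -2.09 for Fgf10 and from -1.14 to -0.66 for Fgf7. Among the fibroblast and mural markers, Pdgfra (log2 fold change -1.47), Dcn (-1.91) and Thy1 (-1.07) were also significantly lower, whereas Acta2 (1.89), Tagln (0.99), Col1a1 (0.81), Cspg4 (0.85) and Pdgfrb (0.63) were significantly higher in the same edgeR test. The part of such cell states in the fall of Fgf7 and Fgf10 was not tested.

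Fgf18 (chr11:33117430-33147400, minus strand) belongs to the FGF8 subfamily, prefers FGFR3 and the IIIc splice forms of the receptors, and is known for its roles in cartilage, bone and lung. It was at 2.99, 3.27, 3.71 and 2.69 CPM in untreated and at 8.33, 10.0, 9.30 and 9.16 CPM in treated libraries. Every treated library held more than the highest untreated one. The mean rose from 3.16 ± 0.436 to 9.20 ± 0.696 CPM (SD, n = 4 each), a 2.89-fold change with a log2 fold change of 1.53 (SE 0.123) and an edgeR FDR of 7.98e-37. Fgf18 was the only ligand among the members that rose by more than 1.5-fold in the glmTreat test.

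Fgf2 (chr3:37348346-37410108, plus strand) encodes basic FGF, which lacks a classical secretion signal and leaves the cell directly through the plasma membrane. It was at 26.1, 27.1, 25.2 and 25.4 CPM without TGFβ1 and at 31.5, 33.3, 31.2 and 25.6 CPM with it. Of the treated libraries, 3 were above all untreated ones, while TGFβ1 replicate 4 lay within their range. The mean was 25.9 ± 0.890 and 30.4 ± 3.34 CPM (SD, n = 4 each), with a log2 fold change of 0.22 (SE 0.0782, edgeR FDR 0.00610), and an exact two-sided permutation test over the libraries gave p = 0.0857. The call was lost when libraries were scaled by their total counts alone, where the log2 fold change was 0.16 with an edgeR FDR of 0.0567. Without TGFβ1 replicate 4 the log2 fold change was 0.30. Exons of Nudt6 on the opposite strand cover 9.44% of the Fgf2 exons. Nudt6 held 75 to 130 counts per library and had a log2 fold change of 0.11 (edgeR FDR 0.430).

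Fgf1 encodes acidic FGF, which binds all FGF receptors and, like FGF2, has no classical secretion signal. It had 8, 7, 10 and 4 counts in untreated and 6, 8, 6 and 12 counts in treated libraries and was removed by the filter. These correspond to 0.322 ± 0.108 and 0.369 ± 0.0757 CPM (SD, n = 4 each), with overlapping groups and an exact permutation p of 0.429. Without the filter, its log2 fold change was 0.19 with an SE of 0.370, so that a difference within this error was not detectable at this depth.

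**Figure D2:**
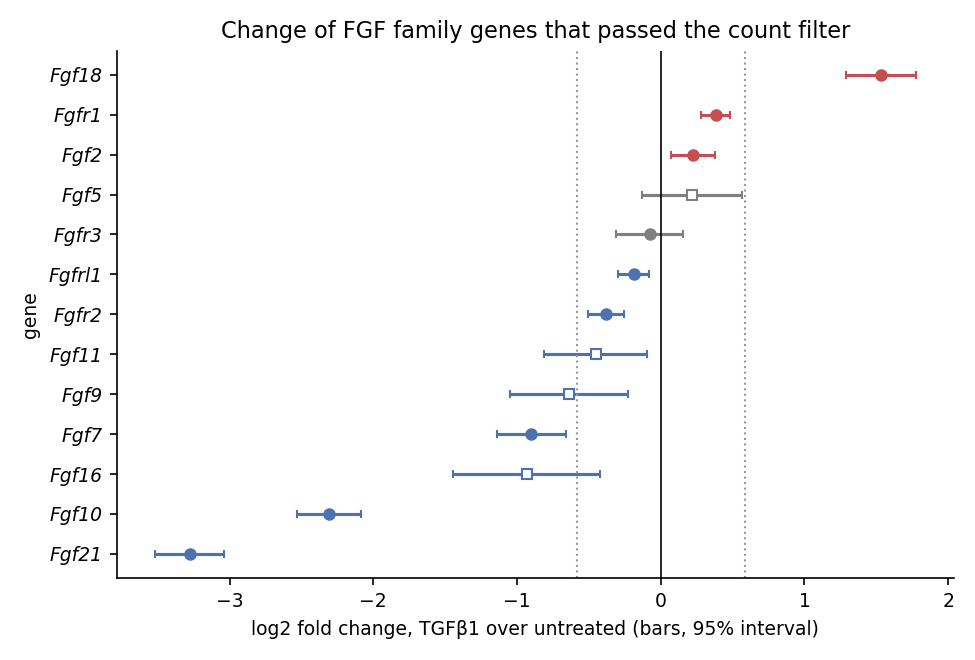
Log2 fold change of TGFβ1-treated over untreated SV-LECs for the 13 FGF ligand and receptor genes that passed the count filter, with 95% intervals as bars. Filled circles are the 9 tested members and open squares the 4 other FGF genes, red and blue mark significantly higher and lower genes, grey marks genes that did not pass an FDR of 0.05, and dotted lines mark a 1.5-fold change; Fgf21 lies at -3.28 and Fgf18 at 1.53.

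Among the receptors, Fgfr1 and Fgfr2 moved in opposite directions by about the same amount. Fgfr1 (chr8:25513654-25575718, plus strand) encodes the FGF receptor that is typical of mesenchymal and endothelial cells. It was at 34.2, 34.0, 33.3 and 33.7 CPM in untreated and at 42.9, 44.3, 43.2 and 45.5 CPM in treated libraries. The spread within groups was small and the groups did not overlap. The mean rose from 33.8 ± 0.412 to 44.0 ± 1.19 CPM (SD, n = 4 each), with a log2 fold change of 0.38 (SE 0.0501, edgeR FDR 7.94e-14). Fgfr2 (chr7:130162451-133123350, minus strand) encodes the receptor whose IIIb form binds FGF7 and FGF10. It was at 46.0, 46.9, 44.7 and 40.9 CPM in untreated and at 33.6, 37.0, 34.9 and 32.0 CPM in treated libraries. Again no library of a group reached the range of the other group. The mean of Fgfr2 fell from 44.6 ± 2.65 to 34.4 ± 2.09 CPM, with a log2 fold change of -0.38 (SE 0.0630, edgeR FDR 3.99e-09). In both genes the change was below 1.5-fold. Exons of Ctbp2 on the same strand cover 3.04% of the Fgfr2 exons in the annotation, so that some reads could be assigned to either gene. Ctbp2 was at 45.8 ± 1.58 CPM in untreated and 42.5 ± 2.08 CPM in treated libraries, with a log2 fold change of -0.11 (edgeR FDR 0.0548). The other genes with exons over those of a member, which are Gm43439 for Fgf2, Gm16263 for Fgf10, Gm16159 for Fgfr1 and G630022F23Rik for Fgfr3, had 0 to 7 counts in every library.

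Fgfr3 (chr5:33721674-33737068, plus strand) encodes a receptor that PROX1 is known to induce in lymphatic endothelium. It was at 7.56, 7.36, 7.73 and 5.48 CPM without and at 6.33, 6.33, 6.89 and 7.14 CPM with TGFβ1. The groups overlapped because untreated replicate 4 lay below all treated libraries. The means were 7.03 ± 1.05 and 6.67 ± 0.410 CPM (SD, n = 4 each) with a log2 fold change of -0.08, a 95% interval from -0.31 to 0.16 and an edgeR FDR of 0.557. The interval leaves room for changes of up to its bounds. Fgfrl1 (chr5:108692382-108706924, plus strand) encodes a receptor-like protein that binds FGFs but has no kinase domain. It was at 66.7, 67.3, 63.1 and 60.5 CPM in untreated and at 53.2, 56.0, 59.7 and 57.2 CPM in treated libraries. The highest treated library lay just under the lowest untreated one. The mean of Fgfrl1 fell from 64.4 ± 3.20 to 56.5 ± 2.68 CPM (SD, n = 4 each), with a log2 fold change of -0.19 (SE 0.0545) and an edgeR FDR of 8.72e-04. For each of the 7 members without overlap between groups, an exact two-sided permutation test gave p = 0.0286. This is the smallest value that 4 against 4 libraries allow, and separated groups always give it. It therefore adds nothing to the lack of overlap, which 69.8% of all genes tested showed.

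To compare levels between genes, CPM was divided by the length of the merged exons of each gene. On this scale untreated SV-LECs held 37.9 ± 4.98 CPM per kb of Fgf21, followed by Fgf10 at 4.74 ± 0.395, Fgf2 at 3.82 ± 0.131, Fgf18 at 2.67 ± 0.367, Fgf7 at 1.84 ± 0.0945 and Fgf1 at 0.0589 ± 0.0197 (SD, n = 4). Each neighbouring pair in this order was further apart than the SDs of its genes. With TGFβ1 the order of the members became Fgf18 at 7.75 ± 0.587, Fgf2 at 4.48 ± 0.492, Fgf21 at 3.91 ± 0.525, Fgf7 at 0.987 ± 0.0759, Fgf10 at 0.951 ± 0.142 and Fgf1 at 0.0675 ± 0.0139 CPM per kb (SD, n = 4). In this order the ranges of the mean ± SD overlapped for Fgf2 and Fgf21, and likewise for Fgf7 and Fgf10. Summed over the 22 ligand genes of the mouse, with the intracellular Fgf11 to Fgf14 included, FGF ligand RNA was 54.3 ± 5.43 CPM per kb in untreated and 20.9 ± 0.0867 CPM per kb in treated cells. Fgf21 made up 69.6 ± 2.44% of this sum without TGFβ1 and 18.8 ± 2.52% with it. Fgf18 went from 4.92 ± 0.625% to 37.2 ± 2.80% and Fgf2 from 7.08 ± 0.639% to 21.5 ± 2.29% (SD, n = 4 each). Since shares add up to 100%, the fall of Fgf21 alone raises the share of the other ligands.

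Among the receptors, Fgfrl1 had the highest level per length, at 23.2 ± 1.15 CPM per kb in untreated and 20.3 ± 0.964 CPM per kb in treated cells, and made up 72.6 ± 0.360% and 69.7 ± 0.979% of the RNA per length of the 5 receptor genes. With the longest transcript as the length, a choice made after seeing the data, these shares were 60.0% and 57.2%. Fgfr2 stood above Fgfr1 in untreated cells, at 4.32 ± 0.257 against 3.42 ± 0.0417 CPM per kb, and below it in treated cells, at 3.33 ± 0.202 against 4.45 ± 0.120 CPM per kb (SD, n = 4). The order of these receptors thus changed between the groups, also with the longest transcript as length, where Fgfr2 went from 21.8% to 18.3% and Fgfr1 from 14.6% to 20.6% of receptor RNA. Fgfr3 was at 0.983 ± 0.146 and 0.932 ± 0.0572 CPM per kb.

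**Figure D3:**
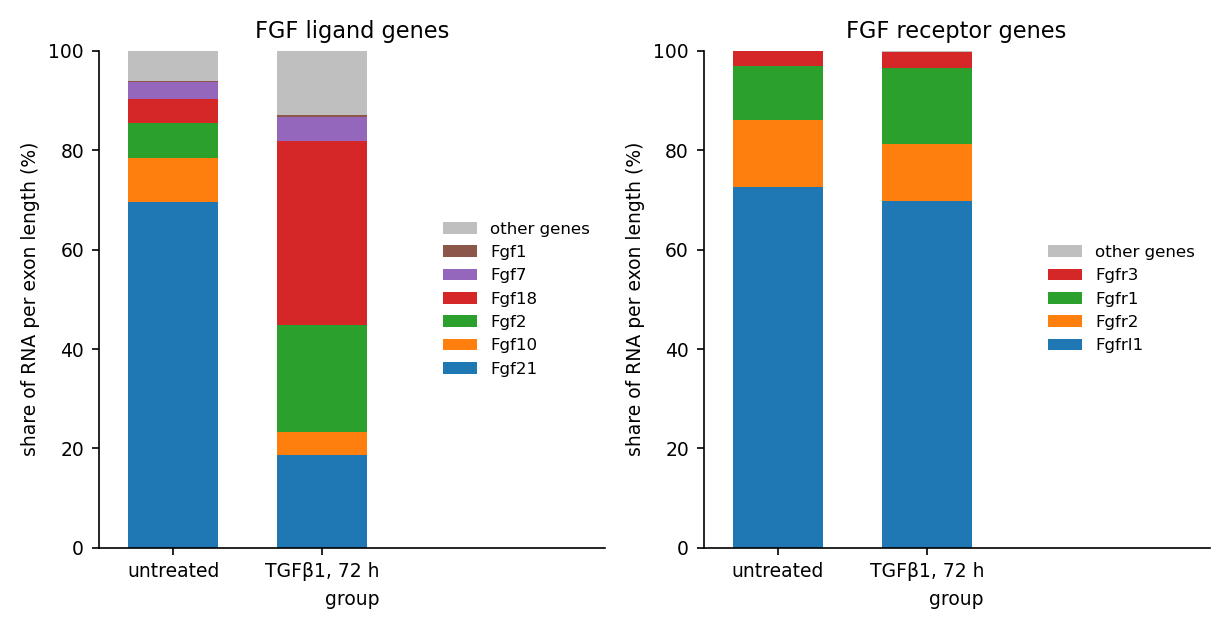
Share of each gene in the RNA of the FGF ligand genes (left) and FGF receptor genes (right), from CPM per kb of exon, as the mean of 4 libraries per group in percent. Fgf21 takes 69.6% of ligand RNA in untreated and 18.8% in TGFβ1-treated SV-LECs, Fgf18 goes from 4.92% to 37.2%, and Fgfrl1 takes 72.6% and 69.7% of receptor RNA.

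The other FGF ligand and receptor genes of the mouse, 17 in number, were at low levels. Of these, 11 had no more than 3 counts in every library, and Fgf3, Fgf4, Fgf6 and Fgf12 were at 0 throughout. The filter kept 4 genes, all below 4 CPM and all with overlapping groups. Fgf16 and Fgf9, ligands of the FGF9 subfamily, had log2 fold changes of -0.93 (SE 0.262, edgeR FDR 4.08e-04) and -0.64 (SE 0.209, edgeR FDR 0.00334). Fgf11, whose protein stays inside the cell and does not activate FGF receptors, had a log2 fold change of -0.45 (edgeR FDR 0.0177). This call was lost in DESeq2 (adjusted p = 0.0547) and when untreated replicate 1, untreated replicate 2 or TGFβ1 replicate 3 was left out, with log2 fold changes of -0.34, -0.41 and -0.40. Fgf5, a regulator of hair length, had a log2 fold change of 0.22 (edgeR FDR 0.258), which was 0.40 without untreated replicate 3 (edgeR FDR 0.0233). Fgfr4, the receptor typical of liver, had 0, 1, 1 and 0 counts in untreated and 8, 10, 6 and 3 counts in treated libraries. From the summed counts of 2 and 27, its level was 14.3-fold higher with TGFβ1 (exact 95% interval 3.59 to 124, counting error only), at 0.325 ± 0.166% of receptor RNA per length.

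FGFs reach their receptors through heparan sulfate proteoglycans and other binding proteins of the cell surface and matrix. Of 15 such genes, 11 were tested and all 11 passed the threshold, 6 as higher and 5 as lower, with a median log2 fold change of 0.13, where 75.6% of all genes tested were called. The genes that rose most were Sdc3, a syndecan that went from 2.41 to 30.4 CPM with a log2 fold change of 3.65 (SE 0.121), Fgfbp3, a secreted FGF carrier that went from 1.70 to 19.7 CPM with 3.56 (SE 0.156), and Hspg2, the matrix proteoglycan perlecan, with 1.30 (SE 0.0648). For none of them did the groups overlap, a separation seen for 69.8% of all genes tested. The genes that fell most were Flrt1 and Flrt3, encoding transmembrane proteins that bind FGF receptors, with log2 fold changes of -1.15 (SE 0.146) and -0.90 (SE 0.0700), and Gpc1, a glypican, with -0.37 (SE 0.0741). The Klotho genes Kl and Klb and the carrier gene Fgfbp1 had no more than 3 counts in every library.

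Of 6 genes for export and intracellular binding of FGF1 and FGF2, S100a13, which takes part in the release of FGF1, rose from 9.06 to 14.7 CPM (log2 fold change 0.70) and Lrrc59, which takes part in the nuclear import of FGF1, rose with 0.53. Api5, which binds FGF2 inside the cell, fell by 0.23 on the log2 scale. Fibp (-0.01, edgeR FDR 0.862) and Nudt6 did not pass the threshold. The median of the list was 0.05.

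Behind the receptors, 22 genes of the adaptors and the kinase cascade were tested. Of these, 7 were higher, 12 lower and 3 not significant, with a median log2 fold change of -0.14, where 37.6% of all genes tested were called as higher and 38.0% as lower. The highest values were those of Hras (0.67), Cbl, a ubiquitin ligase that turns receptors over (0.64), and Ptpn11, the phosphatase SHP2 (0.26). Among the lowest were those of Mapk3, encoding ERK1 (-0.68), and Pik3r1, the regulatory subunit of PI3K (-0.58). In the glmTreat test against 1.5-fold, 1 of the 22 passed, where 25.1% of all genes tested did.

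Genes that ERK signalling is known to induce were mostly higher. Of 13 such targets, 12 were tested, 10 were significantly higher, none was lower and 2 (Ier2 and Ier3) were not significant, with a median log2 fold change of 0.75, where 37.6% of all genes tested were called as higher. Fosl1, an AP-1 subunit, went from 3.88 to 44.4 CPM (log2 fold change 3.52, SE 0.0901) without overlap between groups. Etv4, an ETS factor regarded as a readout of FGF signalling, went from 7.14 to 33.9 CPM (2.25, SE 0.101), and Egr3 had a log2 fold change of 1.59 (SE 0.399) at under 1.1 CPM in every library. The related Etv1 had no more than 1 count in any library. Of 11 feedback inhibitors of receptor and ERK signalling, 6 were higher, 1 was lower and 4 were not significant, with a median of 0.29, beside the same 37.6% higher and 38.0% lower over all genes. Spred3 rose most (1.56, SE 0.0745), followed by the ERK phosphatase genes Dusp4 (1.23, SE 0.0606) and Dusp6 (0.99, SE 0.0546), while the Sprouty gene Spry3 fell by 0.43 on the log2 scale. These genes respond to many receptors besides those for FGFs, and which receptor acted on them was not tested.

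**Figure D4:**
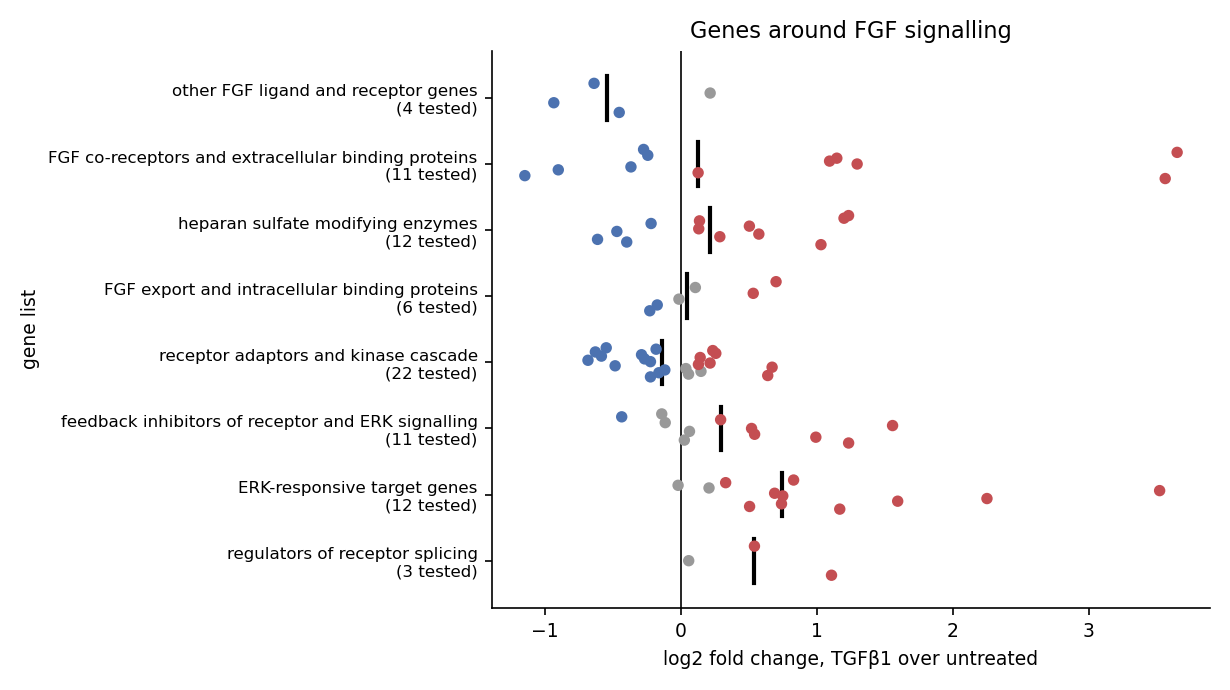
Log2 fold change of TGFβ1-treated over untreated SV-LECs for each tested gene of 8 lists around FGF signalling, 1 point per gene and a black bar at the median of the list. Red and blue points are significantly higher and lower genes and grey points did not pass an FDR of 0.05; the ERK-responsive targets have a median of 0.75 with no significantly lower gene, and the adaptors and kinases lie around -0.14.

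The splice form of FGFR2 decides whether it binds FGF7 and FGF10, and counts per gene do not show it. Of 4 genes known to regulate this splicing, Esrp1, the epithelial factor that favours the IIIb form, had no more than 3 counts in every library. Its relative Esrp2 rose from 15.8 to 34.1 CPM (log2 fold change 1.11, SE 0.0613) without overlap between groups. Rbfox2, known to repress the IIIc exon, rose by 0.54 (SE 0.0419), and Ptbp1 had a log2 fold change of 0.06 (edgeR FDR 0.145).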

How the data were processed

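RNA of 8 SV-LEC samples was prepared with a stranded poly(A) kit and sequenced as single reads of 75 bases. The values deposited by the authors are raw read counts for each gene, made from alignments to GRCm38. The submitters' processing notes name bcl2fastq 2.20.0.422, STAR 2.7.3a and featureCounts 1.5.1; the strand setting and the annotation release are not given in the sources used here. Groups came from the sample labels.

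The analysis followed the study's choice of test in edgeR 4.0.16 (R 4.3.3): filterByExpr, TMM scaling, estimateDisp, glmFit and glmLRT on all 8 libraries, with Benjamini-Hochberg FDRs over 13818 genes and a threshold of 0.05. Standard errors came from the Fisher information of the fit. Single genes were also compared by exact two-sided permutation of the libraries. Alternatives were the quasi-likelihood test, DESeq2 1.42.0, other scalings, filters and prior counts, glmTreat, a replicate block and leaving out each library. The scripts were tested on simulated counts. Exon lengths and overlaps came from GENCODE M21 on GRCm38, which matched 55230 of the 55471 genes, and promoter sequences from RefSeq (GRCm38.p6), which held windows for 8 of the 10 members but not for Fgf1 and Fgfr1.

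The members and gene lists were chosen with earlier results of these data known, so no list is independent evidence. Named genes were all members, the other FGF family genes, and per list up to 3 significant genes with the largest positive and up to 3 with the largest negative change, besides all splicing, export and exon-overlapping genes. Marker and Klotho genes were named outside this rule, and 2 genes that it selects are not reported here. Replicates differed beyond counting noise (chi-square per degree of freedom 2.37 to 7.84), so all were kept. Intervals of log2 fold changes include the spread between libraries through the fitted dispersion, while the floors and the interval of the Fgfr4 ratio cover counting error only.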

Additional observations from a re-analysis of the deposited data

Results flagged for a closer look

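Fgfr3 was at 5.48 CPM in untreated replicate 4, while the other untreated libraries were at 7.36 to 7.73 CPM. This gap to the nearest library was large relative to the range of the group by Dixon's criterion. It was the only such value among 28 sets of 4 libraries examined for 14 FGF genes. Chance gives about 1 in every 20 sets, so 1 among 28 is no more than chance gives. Without that library the log2 fold change of Fgfr3 was -0.17 (edgeR FDR 0.130), beside -0.08 with it, and the gene did not pass the threshold in either case. Other members were also lowest among the untreated libraries in replicate 4, namely Fgf1, Fgf18, Fgf21, Fgfr2 and Fgfrl1. The cause was not tested.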

How the results depend on the processing

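The directions of all 9 tested members were the same under every alternative run. Tested against a 1.5-fold change with glmTreat, the number of members called fell to 1 higher and 3 lower, and that of all genes to 2005 higher and 1466 lower. The members no longer called there were Fgf2 (log2 fold change 0.22), Fgfr1 (0.38), Fgfr2 (-0.38) and Fgfrl1 (-0.19), since the null hypothesis is stricter. With total counts in place of TMM, which moves log2 fold changes by 0.07, Fgf2 lost its call at 0.16, leaving 2 members higher, and all genes split into 4627 higher and 5899 lower. With no filter the split was 6385 higher and 5755 lower. Of the other named genes, those that changed sign were not significant in either case: Fibp had 0.000949 with a minimum of 1 CPM and ranged from -0.072 to 0.0134 without single replicates, and Ptbp1 had -0.00857 with total counts. With the longest transcript as length, the Fgfrl1 share was 60.0% in untreated and 57.2% in treated cells. The replicate block gave 3 members higher and 5 lower, and 5075 and 5077 of all genes. The libraries gave no sign of being paired by the numbers 1 to 4 in the labels. Correlations of deviations between equal numbers were -0.10, -0.06, -0.03 and -0.19, and with 4 libraries per group they cannot exclude a pairing. No library correlated best with its own number. Leaving out single replicates kept 3 members higher and 5 lower. Depth limited Fgf1, Fgfr4 and the other family genes near the floor of 3 counts.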

Other observations

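Heparan sulfate chains hold FGFs at the cell surface, and the pattern of sulfate groups on them affects how FGFs and their receptors bind. All 12 genes examined for the synthesis and modification of these chains passed the filter and were called in edgeR's test, 8 as higher and 4 as lower, with a median log2 fold change of 0.21, where 75.6% of all genes tested were called and 37.6% were higher. Sulf2 and Sulf1, encoding extracellular enzymes that remove 6-O-sulfate and are known to dampen FGF signalling, rose from 324 to 761 CPM and from 45.9 to 106 CPM (log2 fold changes 1.23, SE 0.0421, and 1.20, SE 0.0602). Ext1, encoding a polymerase of the chain, rose from 167 to 342 CPM (1.03, SE 0.0448), while Ext2, which encodes its partner, fell from 196 to 149 CPM (-0.40, SE 0.0406). Glce, the epimerase that makes iduronic acid, and Hs3st1, a 3-O-sulfotransferase, also fell (-0.61, SE 0.0433, and -0.47, SE 0.0729). For these 6 genes, named for the largest changes, the libraries of the groups did not overlap, as for 69.8% of all genes tested. Of the other genes of the list, Ndst2 and Hs6st1 overlapped between groups, while Ndst1, Hs2st1, Hs6st2 and Hpse did not. In the glmTreat test against 1.5-fold, 3 of the 12 passed, close to the 25.1% of all genes tested.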
